A study of Mus musculus with 26 samples.

Results

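The DNA methylation of 52 autosomal axon guidance genes was examined in mouse sperm. The list held the 7 class 3 semaphorins, semaphorins of classes 4 to 7, 7 plexins, both neuropilins, the ephrin-A and ephrin-B receptors, the 3 Slit ligands, the 4 Robo receptors, netrin-1 (Ntn1) and its receptor Dcc. All listed genes were found among the 49976 genes of the RefSeq table (GRCm38.p6), and a CpG position was given to a gene when it lay inside the gene's span or within 2000 bp of it. In this way 13710 positions with at least 10 reads in at least 1 library belonged to the 52 genes, of 2626470 in all. Of these, 2455 positions reached 10 reads in all 20 offspring libraries and 399 did so in all 6 F0 libraries. Every gene had at least 1 position in all 20 offspring, and 42 genes had 1 in all 6 F0 mice.

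Sperm of 26 male mice had been profiled by reduced-representation bisulfite sequencing (RRBS), which enriches CpG-rich restriction fragments. Bisulfite converts cytosines without a methyl group, and the methylation level of a position is the percent of its reads that stayed unconverted. The SSCT F0 group held 3 infertile W/W-v males that carried transplanted, cultured spermatogonial stem cells (SSCs) of DBA/2J donors, while 3 DBA/2J males formed control F0, all of them 16 to 18 months old. The offspring, 5 males per set and 3 months old, carried 4 titles. SSCT F1 mice were sired by transplanted males with control females, SSCT F2/M mice came from SSCT F1 females and control males, SSCT F2/P mice came from SSCT F1 males and control females, and the last set was control F1. All samples were labelled strain DBA/2J. Culture, transplantation and the recipient came together in every SSCT line and cannot be told apart here.

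The names of the 4 offspring sets carry a doubt that precedes every result. Sets are named here by the sample titles, but a clustering picture of the study gives the same 4 sets of 5 mice other names, with the titled control F1 shown as SSCT F2/M, the titled SSCT F2/M as control F1, the titled SSCT F1 as SSCT F2/P and the titled SSCT F2/P as SSCT F1. For the offspring, the numbers of tested positions that the study lists were compared with those counted here. They come near each other throughout only if the picture's names are used with its maternal and paternal F2 labels swapped. As drawn, the picture's names fit the SSCT F1 count alone, and the sample titles fit none of the offspring counts. The treatment label reads WT for both the titled control F1 and the titled SSCT F2/M. Therefore all 6 pairs of offspring sets are given, beside a test over the 4 sets that does not depend on their names, and no direction below can be read as an effect of SSCT in offspring without this doubt.

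Libraries held 45616751 to 87707577 reads summed over positions. The unmethylated control DNA read 0.542 to 1.26% and the methylated control DNA 98.2 to 98.9%. In the offspring, H19, methylated on the paternal allele, stood at 93.6 to 100%, and Mest, Peg3, Peg10, Plagl1, Snrpn and Nnat, methylated on the maternal allele, at 0 to 13.3%, as sperm would have them. The low-input SSCT F0 libraries stood apart. At the guidance genes SSCT F0 replicate 3 covered 895 positions and replicate 2 covered 4773, against 7563 to 9316 elsewhere, and only 0.223% of the positions of replicate 3 lay between 10 and 90% methylation at a median coverage of 385 reads. It was 3.75% in replicate 2, 10.3% in replicate 1, and 9.61 to 11.8% in the offspring and control F0 libraries. F0 results are therefore given with and without replicate 3.

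**Figure D1:**
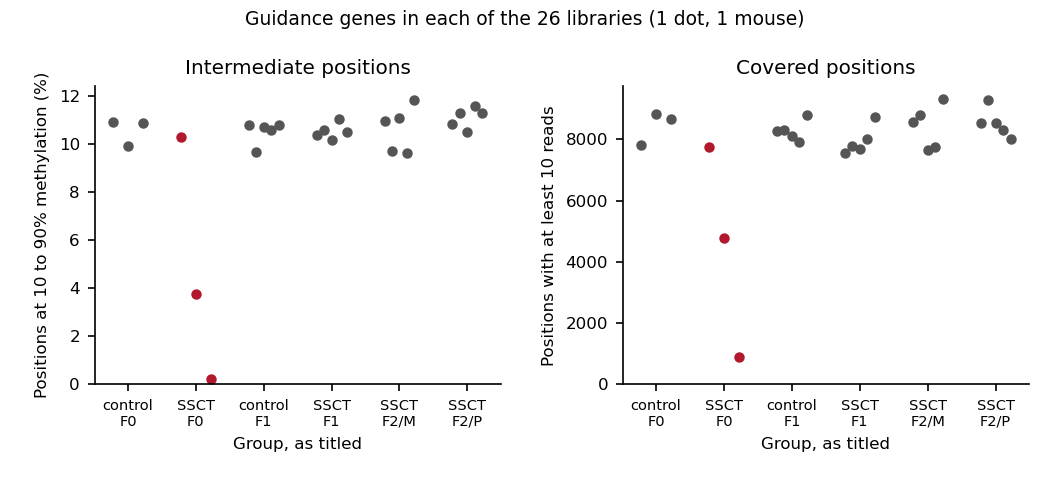
Share of guidance gene positions between 10 and 90% methylation (left, percent) and number of guidance gene positions with at least 10 reads (right) in each of the 26 libraries, 1 dot per mouse, SSCT F0 in red. SSCT F0 replicate 3 sits at 0.223% and 895 positions, and replicate 2 at 3.75% and 4773 positions, below the rest.

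Axon guidance molecules steer growing neurites and also act in vessels and immune cells. Secreted class 3 semaphorins bind neuropilins that signal through plexins, most membrane-bound semaphorins bind plexins directly, Eph receptors are tyrosine kinases for ephrins on neighbouring cells, Slits repel through Robo receptors, and netrin-1 attracts through Dcc. In sperm, as in most mouse cells, CpG-rich promoters are mostly free of methylation whereas CpG-poor promoters and gene bodies are mostly methylated, and the sperm pattern is largely reset after fertilisation.

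Promoters of the list differ widely in their CpGs, and 5 of them are shown as examples. They are the 250 bases before the listed start, 5′ to 3′ on the gene's strand, from RefSeq (GRCm38.p6), with CpGs in capitals. Slit3 (chr11:35121206-35121455, plus strand) and Ephb2 (chr4:136836013-136836262, minus strand) are CpG-rich with 35 and 20 CpGs, Sema3e (chr5:14025026-14025275, plus strand) has 7, and Robo4 (chr9:37401722-37401971, plus strand) and Sema4d (chr13:51748811-51749060, minus strand) have 2 each.
Slit3: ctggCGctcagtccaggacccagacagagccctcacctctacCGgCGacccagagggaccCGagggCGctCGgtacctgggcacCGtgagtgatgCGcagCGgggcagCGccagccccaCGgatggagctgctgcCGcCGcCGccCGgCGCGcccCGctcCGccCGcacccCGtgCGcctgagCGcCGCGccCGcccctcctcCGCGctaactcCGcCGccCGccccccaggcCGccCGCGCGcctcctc
Ephb2: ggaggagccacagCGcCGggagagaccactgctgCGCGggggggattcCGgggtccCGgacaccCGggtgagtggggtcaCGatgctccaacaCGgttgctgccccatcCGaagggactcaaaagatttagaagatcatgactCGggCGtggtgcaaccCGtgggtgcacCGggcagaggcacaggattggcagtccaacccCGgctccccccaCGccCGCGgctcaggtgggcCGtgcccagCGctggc
Sema3e: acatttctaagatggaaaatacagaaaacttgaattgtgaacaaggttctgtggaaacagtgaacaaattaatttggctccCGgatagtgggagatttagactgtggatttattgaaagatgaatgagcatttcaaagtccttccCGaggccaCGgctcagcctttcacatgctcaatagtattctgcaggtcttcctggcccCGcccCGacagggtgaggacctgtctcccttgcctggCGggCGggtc
Robo4: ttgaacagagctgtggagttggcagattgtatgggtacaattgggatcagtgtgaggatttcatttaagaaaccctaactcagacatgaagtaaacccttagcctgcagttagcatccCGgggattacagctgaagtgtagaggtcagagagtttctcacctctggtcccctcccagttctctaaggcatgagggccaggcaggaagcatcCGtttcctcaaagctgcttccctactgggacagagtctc
Sema4d: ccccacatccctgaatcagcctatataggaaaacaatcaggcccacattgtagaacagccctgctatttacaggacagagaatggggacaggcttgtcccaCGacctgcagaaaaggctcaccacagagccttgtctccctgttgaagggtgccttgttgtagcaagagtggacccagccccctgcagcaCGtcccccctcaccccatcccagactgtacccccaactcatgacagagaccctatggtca

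In the Slit3 stretch 2 positions were covered in all 20 offspring and read 1.35% ± 3.96 (SD, n = 20 mice). In the Ephb2 stretch 10 positions were covered and read 1.21% ± 1.60 (n = 20). No position of the other 3 stretches reached 10 reads in every offspring library, so the levels of those genes below come from positions outside the stretches. For Sema4d, 1 position lay in the 50 bases after the printed start and read 98.4% ± 5.06. Another 2 lay near a different listed start of Sema4d, whose sequence is not printed. Over 300 bases around the start (250 before and 50 after), the 58 listed starts of 44 guidance genes held a median of 17 CpGs, with a range of 2 to 56, against a median of 7 over all 32851 listed promoters. The sequence CCGG, which reads the same on both strands and is a cutting site commonly used in RRBS, was present in 79.3% of the guidance promoters and in 52.8% of all promoters. All 61714 covered positions inside the listed promoter windows fell on a CG of the RefSeq sequence. Of the guidance starts with under 10 CpGs in their 300 bases, 2 of 16 had 5 or more positions in the promoter as defined below. These were Sema4f (7 CpGs, 1.51% over 23 positions) and Sema6b (6 CpGs, 9.64% over 5). Among all promoters under 10 CpGs, 7.31% had 5 positions, at a median of 2.52%, with 11.6% of these over 50%. The high Robo4 and Sema4d levels below rest on few positions and do not show that CpG-poor promoters are methylated. The other 8 genes had no listed start, and for 7 of them (Slit1, Sema3f, Plxna4, Dcc, Plxna1, Sema6a and Ntn1) the span end with more covered positions was used, whereas Sema3b was left without a promoter.

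Promoters of the guidance genes were nearly unmethylated in sperm of every offspring set, and their gene bodies mostly methylated. The promoter was taken as the 1000 bp on either side of a start and the body as the part of the span more than 2000 bp from any start, and a gene needed 5 positions to be counted. The median over 42 promoters was 1.90% ± 0.169 (SD, n = 20 mice), and that over 39 bodies was 69.0% ± 2.22 (n = 20). Per set, the promoter median was 1.85% ± 0.202 in the titled control F1, 1.84% ± 0.235 in SSCT F1, 1.96% ± 0.106 in SSCT F2/M, then 1.98% ± 0.101 in SSCT F2/P (n = 5 each). The body median was 69.7% ± 1.93, 69.8% ± 2.26, 67.9% ± 3.09 and 68.4% ± 1.24 in the same order, so that the sets overlapped. Of the 42 promoters 40 lay under 10% (95.2%), against 93.3% of 13509 promoters of all genes. Bodies of the list had a median of 66.1% when reads were pooled over mice, against 79.1% over 7593 genes, and 7 of 39 (17.9%) exceeded 90%, against 38.9% of all genes. Over positions shared with the offspring, the 3 control F0 mice had a promoter median of 1.85% ± 0.279 and a body median of 64.8% ± 2.14 (n = 3). Over the same positions the body median of the offspring sets was 66.9 to 68.6%, with 67.7% ± 2.20 in the titled control F1 (n = 5).

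**Figure D2:**
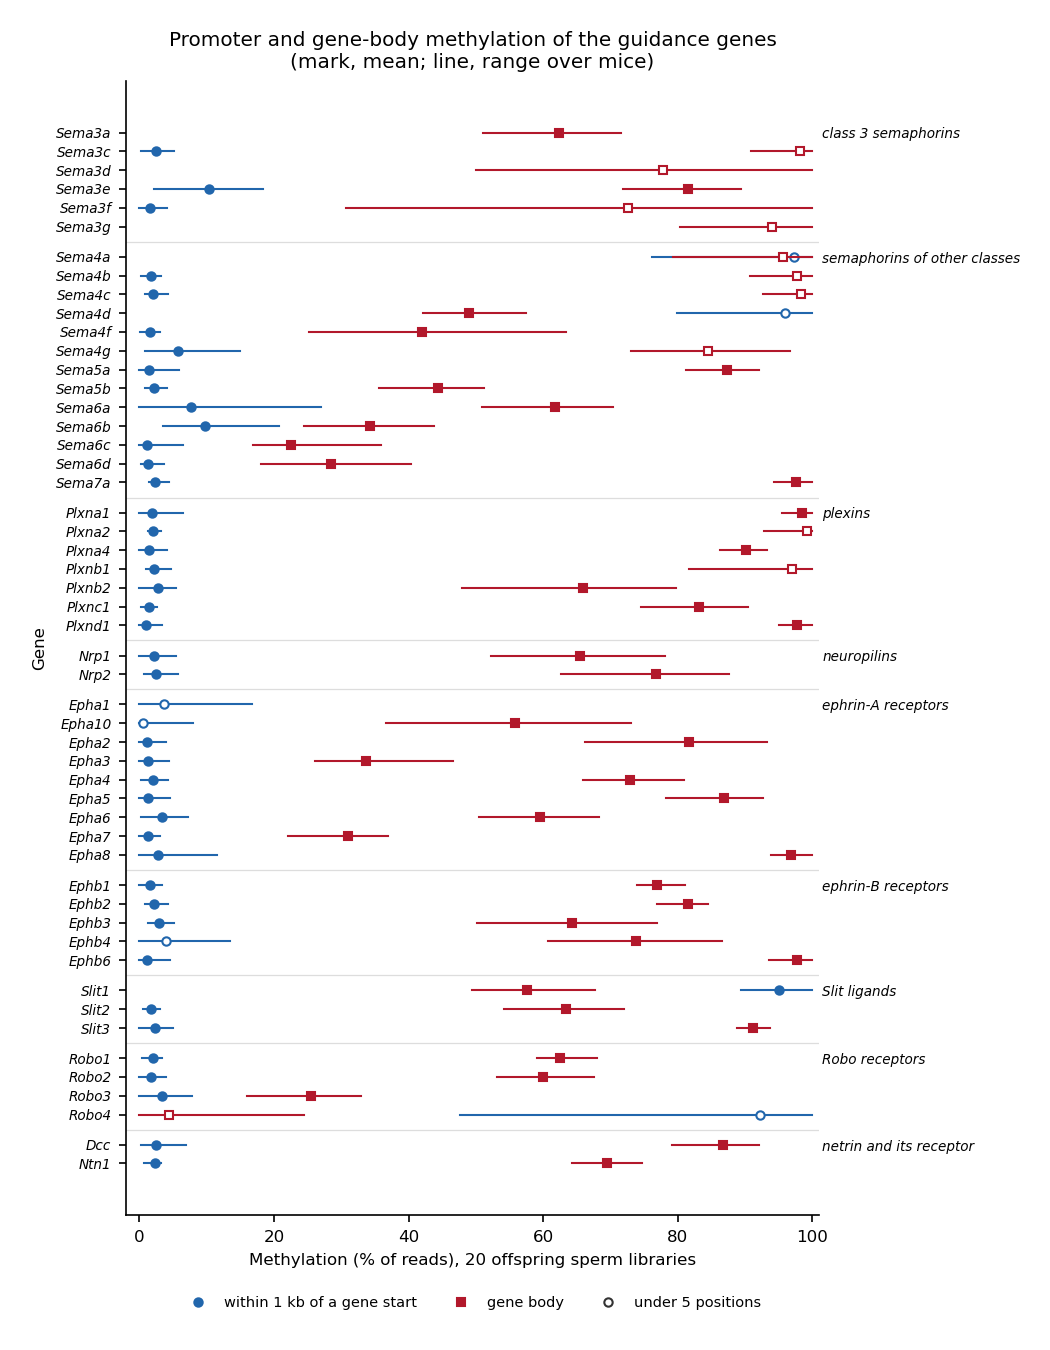
Methylation in percent of the reads within 1 kb of a start (blue circles) and in the gene body (red squares) for each guidance gene, grouped by family, as the mean over 20 offspring mice with a line for the lowest and highest mouse. Open marks rest on fewer than 5 positions. Nearly all promoters lie under 10%, whereas bodies spread from 4.32 to 99.2%.

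Among ligands, the class 3 semaphorin promoters were low for Sema3c (2.51% ± 1.30, n = 20) and Sema3f (1.56% ± 0.918). Sema3e, a ligand that signals through Plxnd1, was higher at 10.3% ± 4.56 over 17 positions, with a range of 2.21 to 18.4% between mice. The promoters of the membrane-bound Sema6b and Sema6a read 9.81% ± 4.61 and 7.62% ± 6.90, and that of Sema4g 5.79% ± 3.28. Sema4d, the ligand of Plxnb1, was at 95.9% ± 5.05 over only 3 positions and Sema4a at 97.3% ± 6.28 over only 1. The CpG-poor stretch of 1 Sema4d start is printed above, but 2 of the Sema4d positions lay near a different listed start. For Slit2 and Slit3 the promoters were at 1.72% ± 0.768 and 2.35% ± 1.37. The Slit1 span end read 95.03% ± 3.94 over 6 positions, but a window 3.77 kb inside the gene (chr19:41743001-41744000) held 13 positions at 1.77% ± 1.10, and with no listed start the promoter cannot be told apart from the far end of the gene. Ntn1 was at 2.24% ± 0.766 over 40 positions.

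Receptor promoters were uniform. The 7 plexins lay between 0.909% (Plxnd1) and 2.70% (Plxnb2), the neuropilins at 2.09% (Nrp1) and 2.52% (Nrp2), and Dcc at 2.51%. Of the Eph receptors with 5 or more positions, Epha2 was lowest at 1.11% ± 1.18 and Epha6 highest at 3.28% ± 1.67. Robo1 and Robo2 read 1.95% ± 0.886 and 1.78% ± 1.14. Robo4, the endothelial member, was the exception among receptors with 92.2% ± 16.1 at a single position, with the mice between 47.6 and 100%, and its printed stretch holds 2 CpGs.

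Bodies of the families spread more widely. Plexin bodies had a median of 90.5% over 5 genes (86.3 to 93.3% between mice), led by Plxna1 (98.4% ± 1.48) and Plxnd1 (97.7% ± 1.41), with Plxnb2 lowest at 66.0% ± 7.19. The other families lay lower, with medians of 78.4% for Ntn1 and Dcc, 77.7% for ephrin-B receptors, 73.1% for class 3 semaphorins, 70.0% for neuropilins, 67.1% for ephrin-A receptors, 64.3% for Slits and 58.7% for Robos. Semaphorins of classes 4 to 7 were lowest at 45.1% over 9 genes (35.6 to 51.5% between mice), so that no mouse overlapped between them and the Robos (53.1 to 65.4%). Their genes did overlap, from 22.5% (Sema6c) to 97.7% (Sema7a) in these semaphorins and from 25.5% (Robo3) to 62.4% (Robo1) in the Robos. The neighbouring families from ephrin-A receptors to class 3 semaphorins overlapped between mice. These orders describe the covered CpGs and were not tested, since genes of a family share neither positions nor coverage.

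The lowest bodies belonged to Robo4 (4.32% ± 6.39 over 3 positions), Sema6c (22.5% ± 4.65), Robo3 (25.5% ± 5.52), the receptor needed for commissural crossing, Sema6d (28.4% ± 6.36) and Epha7 (31.0% ± 3.99). The highest were Plxna2 (99.2% ± 1.7 over 3 positions), Plxna1, Sema4c (98.3% ± 2.53, 3 positions), Sema3c (98.2% ± 2.75, 4 positions) and Ephb6 (97.7% ± 1.76), an Eph receptor without kinase activity. A body of low mean could hold windows of both kinds. Sema6b, whose body read 34.2% ± 5.47, had 1.86% ± 1.49 over the 19 positions of chr17:56124001-56125000, 9.35 kb from a start, and 97.2% ± 3.28 over the 8 positions of a window 5.35 kb from a start.

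This mixture was examined in 1000 bp windows. Of 553 windows of the guidance genes, 143 (25.9%) were under 10%, 323 (58.4%) over 90% and 87 (15.7%) between, against 28.8, 50.9 and 20.4% of 106111 windows in all. The SD between mice had a median of 1.98 percentage points in the low, 3.29 in the high and 12.2 in the intermediate windows. With distance from the nearest start the share under 10% fell from 63 of 70 windows (90%) within 1 kb to 20 of 30 at 1 to 2 kb, 12 of 36 at 2 to 5 kb, 17 of 78 at 5 to 20 kb and 9 of 116 at 20 to 100 kb, and it was 21 of 221 beyond. The 23 windows with at least 20 covered positions all lay between 1.13 and 5.17%. Among all windows of this density 3614 of 3641 were under 10%.

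**Figure D3:**
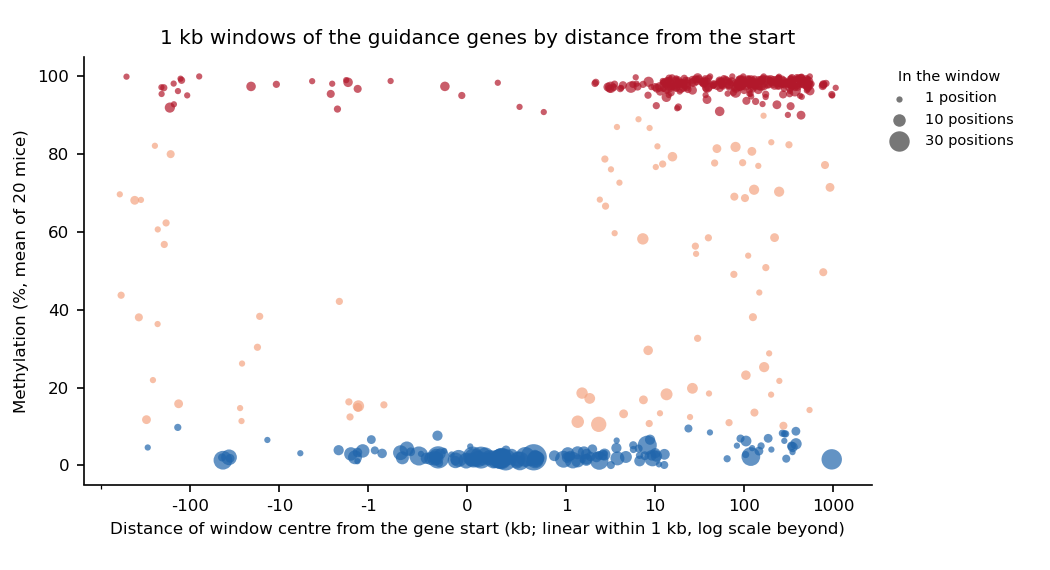
Mean methylation over 20 offspring mice (percent) of each 1000 bp window of the guidance genes against the distance of its centre from the nearest start (kb, linear within 1 kb and logarithmic beyond, negative before that start, which in genes with an inner start can still be inside the span). Dot area grows with the number of covered positions, and blue, orange and red mark windows under 10%, from 10 to 90% and over 90%. Large dots stay near 0 at all distances.

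Of the dense windows 18 were promoters and 4 lay in bodies. These were in Sema6c (chr3:95172001-95173000, 26 positions, 5.17% ± 2.98), Sema6d (chr2:124610001-124611000, 25 positions, 1.31% ± 1.02), Sema5b (chr16:35660001-35661000, 25 positions, 2.25% ± 1.56) and Epha7 (chr4:28815001-28816000, 24 positions, 1.21% ± 0.70). The Sema5b window lay 119 kb and the Sema6c window 8.16 kb from the listed start. In all, 60 body windows in 29 genes were under 10%, and 42 of them, in 22 genes, were 5 kb or more from a start. Among genes with many covered windows, Robo1 had 7 of 40 body windows under 10% and 21 over 90%, Ephb1 had 4 of 39 and 32 of 39, and Dcc had 0 of 17 and 13 of 17. Of the low bodies, Robo3 had 3 of 4 windows under 10% and 0 over 90%.

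No guidance gene passed the test of a difference between the 4 offspring sets. In limma on log2((methylated reads + 1)/(unmethylated reads + 1)) per gene, with Benjamini-Hochberg adjustment over all genes, 0 of 39 bodies and 0 of 42 promoters reached an adjusted p of 0.05, beside 0.0% of 7593 bodies and 0.0% of 13509 promoters. At an unadjusted p under 0.05 there were 0 of 39 bodies, against 4.57% of all bodies, and 4 of 42 promoters (Slit3, Ntn1, Plxna1 and Epha8), against 5.19% of all promoters. The smallest adjusted p of a member promoter was 0.446, for Slit3. There the titled SSCT F1 read 0.754% ± 0.717 (0 to 1.7%), the titled control F1 2.57% ± 1.03, SSCT F2/P 2.39% ± 1.04 and SSCT F2/M 3.67% ± 0.896 (n = 5 each). The SSCT F1 mice overlapped those of the other sets except SSCT F2/M. In the 6 pairs of sets and in the F0 comparison, 0 members were called as well. At an unadjusted p under 0.05, the SSCT F1 and control F1 pair had 1 of 39 bodies (Epha8, 5.16% of all bodies) and 4 of 42 promoters (5.32% of all promoters). SSCT F2/M and control F1 had 0 bodies (4.24%) and 2 promoters (5.06%), and SSCT F2/P and control F1 had 0 bodies (4.58%) and 1 promoter (4.89%). Among SSCT sets, F1 and F2/M had 1 body (4.98%) and 3 promoters (5.35%), F1 and F2/P had 2 bodies (4.89%) and 4 promoters (4.97%), and F2/M and F2/P had 3 bodies (4.23%) and 1 promoter (4.63%). In the F0 these were 1 of 13 bodies (Sema6b, 8.78% of all) and 1 of 19 promoters (Plxnd1, 8.23%).

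The members with the largest gene-level differences from the titled control F1 are given next. Of the bodies, Epha10, an Eph receptor without kinase activity, read 60.7% in the titled control F1, 55.9% ± 13 in SSCT F1, 51.9% ± 7.38 in SSCT F2/M, then 54.9% ± 5.57 in SSCT F2/P, with adjusted p-values from limma of 0.998, 0.998 and 1.00. For SSCT F1 the others were Sema4f (37.4% against 42.4%) and Sema5b (42.4% against 47.3%), for SSCT F2/M Plxnb2 (59.3% against 66.7%) and Nrp1 (61.2% against 66.9%), and for SSCT F2/P Epha2 (77.8% against 83.8%) and Ephb3 (59.2% against 63.8%). Of the promoters, Sema6b read 8.37% in the titled control F1 and 11.6% in SSCT F1, and Plxna1 1.32 and 3.58% (limma adjusted p = 0.981 and 0.923). The Plxna1 mice did not overlap (2.49 to 6.43% in SSCT F1 against 0.909 to 1.97%), whereas those of Sema6b did. Sema6a read 4.52% in the titled control F1 and 7.03% in SSCT F1, 10.7% in SSCT F2/M, then 8.27% in SSCT F2/P, with overlapping mice. Sema4g read 4.06% in the titled control F1, 7.23% in SSCT F2/M, then 7.14% in SSCT F2/P, and the adjusted p from limma was 1.00 for both. The Slit1 span end read 93.5% in SSCT F2/M against 95.9%, and the Epha8 promoter 5.64% in SSCT F2/P against 2.05% (limma adjusted p = 0.992), with overlapping mice.

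Single positions were then compared with a logistic model of the reads. A q under 0.01 and a difference over 25 percentage points made a differentially methylated CpG (DMC) or, over 1000 bp windows, a differentially methylated region (DMR). This test takes reads as independent and ignores the spread between mice. In SSCT F1 against control F1, as titled, 10 of 3195 guidance positions were DMCs (0.313%), against 0.462% of all positions. They lay in Ephb2, Sema3a, Ephb4, Sema4f, Slit3, Ntn1, Sema5b, Epha6 and Robo1. For SSCT F2/M against control F1 the DMCs were 14 of 3532 (0.396%, against 0.42%), in Ephb2, Epha2, Robo3, Sema5b, Epha3, Robo1, Sema6b and Slit1. For SSCT F2/P against control F1 they were 13 of 3569 (0.364%, against 0.43%), in Ephb2, Epha2, Sema3a, Ephb4, Sema4f, Robo3, Plxnc1, Epha6, Robo1 and Slit1. Between the SSCT sets, SSCT F1 and SSCT F2/M gave 10 of 3282 (0.305%, against 0.439%), SSCT F1 and SSCT F2/P 7 of 3329 (0.210%, against 0.447%). The last pair, SSCT F2/M against SSCT F2/P, gave 10 of 3803 (0.263%, against 0.404%). Each share was below that of all positions, but the pairs share mice and these gaps were not tested. In the 3 control comparisons 3, 8 and 7 of the calls were lower and 7, 6 and 6 higher in the SSCT set, so that neither direction prevailed throughout. DMRs numbered 3 of 674 (0.445%, background 0.414%), 3 of 693 (0.433%, background 0.363%) and 0 of 702 (background 0.391%) in the same order. In the pairs of SSCT sets they numbered 3 of 681 (0.441%, background 0.369%), 2 of 679 (0.295%, background 0.408%) and 1 of 718 (0.139%, background 0.367%). The DMR shares thus lay on both sides of the background. Every DMR of SSCT F1 against control F1 and of the pairs of SSCT sets held only 1 covered position, itself a DMC. The Robo1 DMR of SSCT F2/M against control F1 did so too, while the Ephb2 and Epha2 DMRs there held 2 and 3 positions. Most offspring DMRs therefore repeat DMCs already counted. With an F test that scales by the spread between mice, 0 positions or windows were called in any comparison, for the list or for all genes, while 2 to 8 guidance positions per offspring pair had an unadjusted p under 0.05 and a difference over 25 points.

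Irrespective of calls, 0.0609 to 0.156% of the guidance positions per offspring pair had sets without overlap, against 0.132 to 0.142% of all positions. The 64 calls in offspring pairs fell on 47 positions of 21 genes, 60 of them in gene bodies, 4 elsewhere and 0 in promoters. Of the 47 positions, 14 were covered in all 20 offspring, with a median level of 58.0% and a median SD between mice of 21.5 points. All 234 guidance positions of intermediate level had a median SD of 15.2 points. The called positions were selected in these same mice for a large difference between sets, which by itself raises their SD. The gap between the SDs therefore cannot show that called positions vary more between mice. Calls in the 3 control comparisons share the same 5 control mice and are not independent.

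Epha2, a receptor that also acts in epithelia, held the most, with 10 positions within 935 bp, 7.31 to 8.24 kb from its start on chromosome 4. Their mean over the offspring was 34.0 to 70.7%. At position 141309217 the 5 titled control F1 mice read 48.8, 54.5, 55.6, 60 and 61.1%, and the 5 SSCT F2/M mice 0, 0, 0, 35.7 and 48.6%. These mice did not overlap (p = 0.00794 by a two-sided exact permutation test, the lowest value 5 against 5 mice can give), but the F test gave an adjusted p of 0.621. In the other sets the mice spread from 0 to 59.6% (SSCT F1, 4 mice) and from 0 to 71.4% (SSCT F2/P), so that mice at 0% occurred in 3 of the 4 sets at this position. The nearest called position, 141309239, lay 22 bp away, within the 50 bases of a read, so neighbouring calls here can share reads. There the SSCT F2/M values were the same, but the titled control F1 mice read 0, 29.3, 54.5, 56.8 and 60% and overlapped them (exact p = 0.175). At the called position 141309266 a titled control F1 mouse also read 0%, and the mice overlapped (exact p = 0.206).

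Ephb2, the receptor with the second printed promoter, was called at position 136832528 of chromosome 4, 3.48 kb inside the gene, in 3 pairs. The titled control F1 mice read 20.7, 33.3, 40.6, 52.8 and 55.8% and the SSCT F1 mice 64.3, 76.2, 79.5, 81.1 and 100% (exact p = 0.00794, F test adjusted p = 0.626). SSCT F2/M mice read 50.0, 60.8, 70.4, 100 and 100%, and SSCT F2/P mice 0, 23.1, 38.9, 68.4 and 77.8%. The SSCT F2/P mice thus ran from below the control mice to the level of SSCT F1. The call between SSCT F1 and control F1 held without any 1 mouse, whereas that between SSCT F2/M and control F1 was lost without any of 5 of them.

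Slit3, whose promoter opens the printed set, was called in 3 pairs at position 35341746 of chromosome 11, 220 kb from the start. SSCT F1 mice read 50.0, 53.8, 64.3, 65.0 and 89.6%, above all SSCT F2/P mice at 10.0, 16.4, 29.7, 33.3 and 46.0% (exact p = 0.00794, F test adjusted p = 0.624), while the titled control F1 read 0, 30.2, 31.6, 32.5 and 50.0% and SSCT F2/M 0, 28.6, 29.2, 29.5 and 70.7%. Without SSCT F1 replicate 2 the calls against control F1 and SSCT F2/M were lost. On the opposite strand of the same CpG methylation was 97.7% ± 4.97 over the 20 mice (84.4 to 100%). The called strand had a mean of 38.0% ± 23.3. Differences between strands of over 50 points were found in 3 of 347 guidance CpGs with both strands covered (0.865%) and in 1.84% of 53169 CpGs in all. The cause was not tested.

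Most calls could be read on 1 strand only. The opposite strand had 10 reads in every mouse compared for 7 of the 64 calls, at 5 positions. It was called in 0 of the 7, moved in the same direction in 1 (Epha2 at position 141308529, by 19.3 points against 29.4 at the called strand), and differed between the sets by a median of 3.05 points.

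In Sema5b, position 35651182 of chromosome 16 was near 0 in the titled control F1 (0, 0, 0, 0 and 22.2%) and at 31.0, 34.4, 37.3, 38 and 75% in SSCT F2/M (exact p = 0.00794, F test adjusted p = 0.621). SSCT F1 mice read 0, 0, 38.1, 38.9 and 51.3%, split between both. Sema3a, the founding neuronal repellent of its class, was called at position 13474909 of chromosome 5, with 68.9, 71.4, 83.9, 84.4 and 90% in SSCT F2/P above 0, 54.2, 59.1, 61.5 and 65.7% in the titled control F1 (exact p = 0.00794, F test adjusted p = 0.621). This call was lost when any of 4 of the 10 mice was left out. Robo1 had 7 positions called in offspring pairs over 460277 bp, and at position 72283691 of chromosome 16 SSCT F1 mice (42, 48.1, 84.2, 86.4 and 96.3%) were higher on average than those of the 3 other sets, yet overlapped each of them. The titled control F1 read 21.2 to 58.3%, SSCT F2/M 10.3 to 45% and SSCT F2/P 7.14 to 69.2%.

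**Figure D4:**
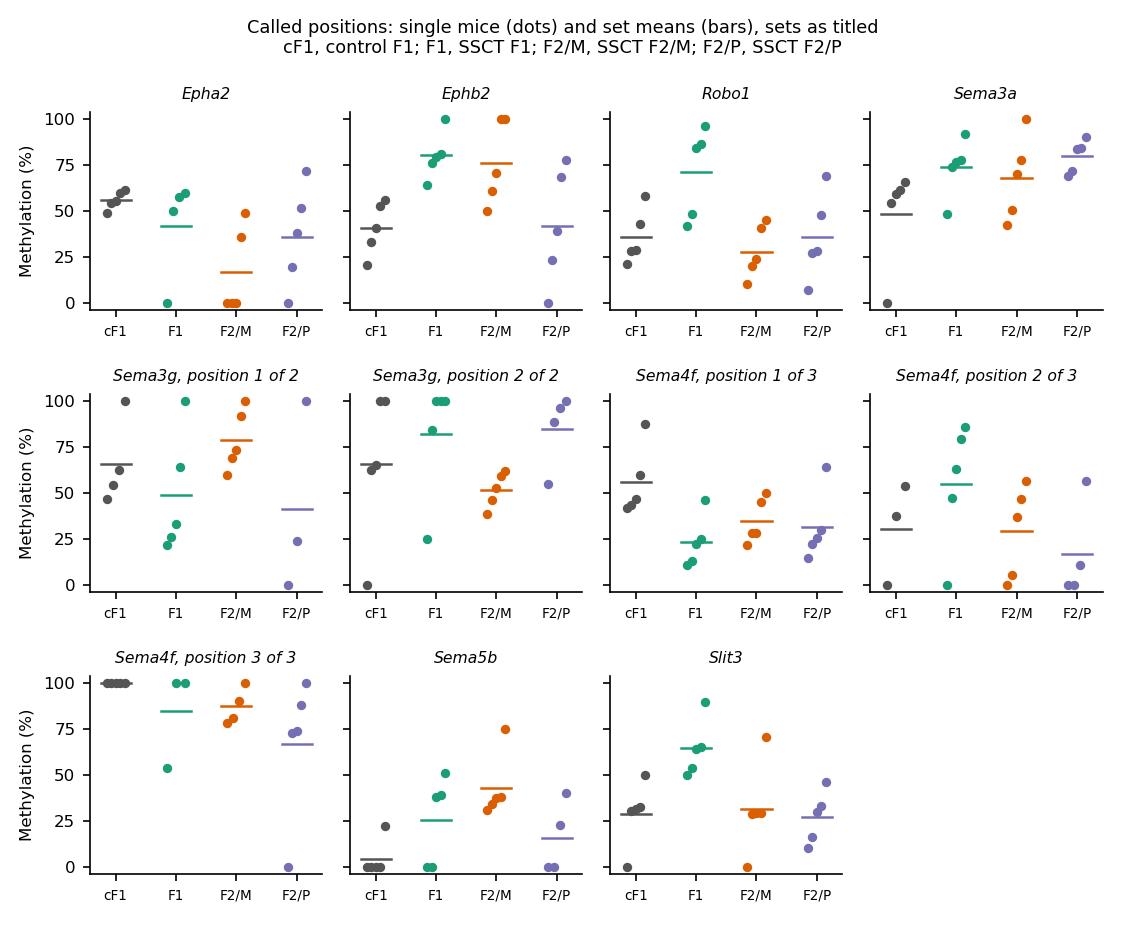
Methylation (percent) at 11 called CpG positions in each offspring mouse with at least 10 reads (dots), with the mean of each set as a bar, and sets named as titled. Among the called pairs, 1 pair without overlap occurs for each of Epha2, Ephb2, Sema3a, Sema5b and Slit3, whereas in the other panels the mice of the called pairs overlap.

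Sema4f and Sema3g are named in the study for SSCT F2/M against control F1. Neither had a call in the pair so titled, and both had calls between the titled SSCT F1 and SSCT F2/M. That pair bears the study's name only under the picture's names with both F2 sets exchanged. Sema4f had 3 called positions 22.4 to 26.7 kb into its 27.9 kb span on chromosome 6, each in another pair. Position 82913097 read 10.7 to 46.2% in SSCT F1 against 41.7 to 87.5% in the titled control F1 (lower, exact p = 0.0238, F test adjusted p = 0.626). Position 82914071 read 0 to 85.7% in SSCT F1 against 0 to 56.7% in SSCT F2/M (exact p = 0.190, F test adjusted p = 0.629). Position 82917361 read 0 to 100% in SSCT F2/P while all 5 control mice stood at 100% (exact p = 0.0476, F test adjusted p = 0.621). This last call was lost without SSCT F2/P replicate 3, the mouse at 0%. The calls at the other positions were each lost without either of 2 mice. Sema3g had 2 called positions on chromosome 14, both in SSCT F1 against SSCT F2/M and in opposite directions. At 31221801 SSCT F1 mice were lower (49.0% ± 33.0 against 78.9% ± 16.6) and at 31228410 higher (81.9% ± 32.5 against 51.6% ± 9.52), with overlapping mice at each.

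In the F0, 20 of 399 positions were DMCs (5.01%, background 5.83%) and 7 of 100 windows DMRs (background 10.0%), with 15 positions higher and 5 lower in SSCT F0. Several of the higher ones were seen in SSCT F0 replicate 3 alone. At the promoter positions of Plxna4 (32587878 on chromosome 6), Sema4b (80186930 on chromosome 7), Ephb3 (21204970 on chromosome 16) and Epha6 (60604902 on chromosome 16) that mouse read 99.0 to 100%, SSCT F0 replicates 1 and 2 read 0%, and the control F0 mice 0 to 14.5%. Leaving it out ended each of these calls. Of the 399 positions 18 (4.51%) had no overlap between the groups, against 3.10% of all positions. Called positions without overlap, at which the two-sided exact permutation test gave p = 0.1, the smallest for 3 against 3, were in Epha8, Sema5b, Robo1, Robo2, the Dcc promoter and Slit1. The Sema5b and Dcc calls were lost without SSCT F0 replicate 3. In Robo2, position 74608148 of chromosome 16 read 95.7, 99.0 and 99.8% in SSCT F0 and 25.6, 40.4 and 82.2% in control F0, and in Robo1, position 72240038 read 100% in all 3 SSCT F0 and 57.5, 73.6 and 78.4% in control F0. In the Epha8 body, position 136942867 of chromosome 4 read 63.2, 88.9 and 0% in SSCT F0 replicates 1, 2 and 3 and 100% in the 3 control F0 mice. The F test called 0.

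Without SSCT F0 replicate 3, 2952 positions could be tested and 159 were DMCs (5.39%, background 5.83%), 81 lower and 78 higher in SSCT F0, in 42 genes. Of these 25 lay in promoters and 126 in bodies, location counts that again have no background here. DMRs numbered 43 of 481 windows (background 10.1%). The F test again called 0, with 56 positions at an unadjusted p under 0.05 and over 25 points, and 2 against 3 mice cannot give an exact p under 0.2. The body median was 49.9% ± 7.12 in SSCT F0 (n = 2) and 55.9% ± 3.46 in control F0 (n = 3), with overlapping mice, and the promoter median 1.48% ± 0.333 against 1.60% ± 0.224. Bodies had the lower mean in SSCT F0 in 32 of 43 genes (74.4%), against 64.0% of 6371 genes in all, and in 11 of 43 (25.6%) both SSCT F0 mice were under all control F0 mice, against 22.4% of all genes. The other direction without overlap held for 5 of 43 (11.6%), against 9.65%.

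By family, the median of the bodies was lower without overlap in 4 of 9 families. The share of 22.4% given above is for single genes, and no like share was computed for medians of several genes. The count of families therefore has no background here. Neuropilin bodies read 23.2 and 32.1% in SSCT F0 and 41.7, 51.0 and 62.4% in control F0, and class 3 semaphorins 50.0 and 63.7% against 65.4, 70.5 and 78.2%. The ephrin-B receptors read 44.9 and 49.4% against 55.1, 62.5 and 63.4%, and the ephrin-A receptors 28.8 and 34.9% against 38.6, 52.7 and 59.9%. Plexin bodies read 89.8 and 94.3% against 87.8, 88.6 and 92.5%. They overlapped, as did the Robos, the Slits, Ntn1 with Dcc, and the semaphorins of classes 4 to 7. The Sema4f body read 79.0 and 80.6% against 30.2 to 45.4% over 8 positions, but with all 3 SSCT F0 mice over 5 positions the SSCT F0 values ran from 0 to 96.7% (limma adjusted p = 0.930). These values come from the same 2 SSCT F0 mice, and low input, recipient strain and transplantation cannot be told apart. Of the maternally methylated loci, expected free of methylation in sperm, Peg3 read 3.65 to 11.7% in these 2 libraries and 0 to 0.780% in control F0 over 8 positions. The others overlapped, with Plagl1 at 0.0494 to 8.18% against 0.900 to 3.10%, Snrpn at 0 to 7.28% against 0 to 3.33%, Nnat at 0 to 1.62% against 0 to 3.18%, Mest at 0% in both mice against 0 to 9.09% and Peg10 at 0% in both against 0 to 4.55%. H19 read 0 and 87.1% against 90.8 to 100% at 1 position. With replicate 3 only Peg3 of these loci was covered, at 6.40 to 49.8% over 4 positions. The promoters of Dazl, Ddx4, Sycp3 and Mael, expected methylated in somatic cells but not in germ cells, were also read in SSCT F0 replicates 1 and 2. Dazl read 0.932 to 1.56% there against 2.01 to 2.91% in control F0 over 41 positions, lower without overlap. Ddx4 overlapped at 0.145 to 1.28% against 0.296 to 4.37%, as did Sycp3 at 0.554 to 3.29% against 1.89 to 7.16%. Mael read 0% in both mice against 0 to 2.33%. The part of other cells in the F0 differences was not tested.

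Other genes of these pathways, 39 ephrins, Unc5 receptors, netrins and signalling partners, were counted for comparison. Against control F1 their DMCs numbered 5 of 2457 (0.2035%, against 0.462% of all positions) for SSCT F1, 4 of 2662 (0.150%, against 0.42%) for SSCT F2/M, then 7 of 2861 (0.245%, against 0.43%) for SSCT F2/P. They numbered 7 of 2460 (0.285%, against 0.439%), 8 of 2641 (0.303%, against 0.447%) and 3 of 2895 (0.104%, against 0.404%) in the 3 pairs of SSCT sets. In the F0 they numbered 20 of 397 (5.04%, against 5.83%), of which 15 were lower. In limma 0 of 26 promoters and 0 of 26 bodies were called between the 4 sets. Their promoters had a median of 1.76% and their bodies 73.4%.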

How the data were processed

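RRBS of epididymal sperm DNA from 26 mice (single reads of 50 bases) was analysed from the deposited tables. For each cytosine in CpG context the authors deposited the read count (coverage) and the fraction of methylated reads after trimming, alignment and methylation calling. The submitters' processing notes name Trim Galore 0.4.1, FastQC, Bismark 0.20.0 and methylKit 1.7.0 and the builds GRCm38 and mm10, without their roles. Methylated reads were the product of count and fraction, rounded to whole numbers.

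Groups were taken from sample titles. Positions needed 10 reads in every library compared and at most the 99.9th percentile of coverage. Reads were tested per position and per 1000 bp window with a logistic likelihood-ratio test and Benjamini-Hochberg adjustment over all positions, with q under 0.01 and over 25 percentage points as the call. An F test, with the variance inflated by Pearson's statistic per degree of freedom, allowed for the spread between mice. Gene promoters and bodies with 5 or more positions were tested with limma 3.58.1 (R 4.3.3) at an adjusted p of 0.05. Other steps used Python 3.11.15, NumPy 2.4.6, SciPy 1.17.1, pandas 2.3.3 and Matplotlib 3.10.9, and the scripts were tested on simulated data. Single positions were given an exact permutation test. Called positions were chosen in the same mice, so their exact p-values are unadjusted and add no support to the calls. RRBS reads carry no molecular identifiers, so read-based q values cover counting error only.

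The members and lists were chosen with earlier results of these data known. Named genes were those with a DMC in the comparison described, the 5 highest and 5 lowest bodies, promoters over 10%, the 3 largest gene-level differences in each control comparison, and Sema4f, Sema3g and Epha2. The comparison with the opposite strand and the windows named for single genes were chosen after the data were seen. Replicate numbers were not treated as pairs, as the correlation of deviations was -0.0142 to 0.0165 for the same number and -0.0151 to 0.0164 for other numbers. The medians were 0.00264 and -0.000983, and the gap was not tested. No 2 replicates agreed within sampling noise (chi-square per degree of freedom of 5.62 or more in 46 pairs). Alternatives were the read minimum, window and promoter size, F test, set names, replicate block, merged strands and leaving out each mouse.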

Additional observations from a re-analysis of the deposited data

Results flagged for a closer look

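Of 108 groups of 5 mice tested for a single mouse far from the others, 8 held one, and chance alone gives about 1 in 20. The median of the gene bodies was 66.3% in control F1 replicate 5, with the other 4 mice at 70.0 to 71.1%, and 66.3% in SSCT F2/P replicate 1, with the others at 68.5 to 69.4%. Control F1 replicate 5 was also apart in the Sema6c body, at 35.9% against 17.1 to 22.1%. In SSCT F2/P replicate 4 the Sema4g promoter read 14.9% against 3.54 to 6.52%, and the Plxna4 promoter 4.14% against 0.370 to 1.46%. The Sema6b promoter read 20.8% in SSCT F2/P replicate 2 against 5.93 to 9.29%. The Sema6a promoter read 27% in SSCT F2/M replicate 1 against 4.56 to 9.09%, and the Plxna1 promoter 6.43% in SSCT F1 replicate 4 against 2.49 to 3.19%. Their causes were not tested.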

How the results depend on the processing

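The F test called 0 DMCs and 0 DMRs in each of the 7 comparisons. With at least 5 reads, guidance DMCs numbered 23 (SSCT F1 against control F1), 29 (SSCT F2/M against control F1), 29 (SSCT F2/P against control F1), 26 (SSCT F1 against SSCT F2/M), 25 (SSCT F1 against SSCT F2/P) and 24 (SSCT F2/M against SSCT F2/P). With at least 20 reads they numbered 2, 4, 2, 2, 1 and 1 in this order, with fewer positions that could be tested. The share called over all positions is not given at 5 or 20 reads, so these counts have no background here. All 34 single calls (DMCs and DMRs, F0 included) that could still be tested were kept. A position that passes the higher minimum keeps its reads, so this was nearly fixed in advance. DMRs with 20 reads were 0, 0, 1 and 0 for SSCT F1 against control F1, SSCT F2/M against control F1, SSCT F1 against SSCT F2/M and SSCT F1 against SSCT F2/P, and 1 with 5 reads for SSCT F2/M against control F1. Windows with at least 3 positions left 1 DMR for SSCT F2/M against control F1 and 0 for the F0 and for each other pair with a DMR. With the set names of the clustering picture, and with the names of both F2 sets then exchanged, DMRs were 1 and 1 for SSCT F1 and 3 and 3 for SSCT F2/P against control F1. The Sema5b window at 35658001 (SSCT F1 against SSCT F2/M) turned to a difference of 1.2 points with 5 reads. The body median was 59.1% with 20 reads and 76.8% over each library's own positions, and the promoter median 1.68% within 500 bp. The causes were not tested.

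Leaving out 1 mouse gave 20 to 159 DMCs and 7 to 43 DMRs in the F0, the highest without SSCT F0 replicate 3. In the comparisons of SSCT F1, then SSCT F2/M, then SSCT F2/P with control F1 it gave 11 to 18, 11 to 18 and 15 to 21 DMCs and 1 to 7, 1 to 5 and 0 to 4 DMRs. In the other pairs it gave 10 to 14, 6 to 13 and 11 to 17 DMCs and 2 to 5, 1 to 4 and 0 to 4 DMRs. Gene-level calls were 0 to 0 throughout. The share called over all positions is given only for the F0 without SSCT F0 replicate 3, so the other DMC and DMR counts have no background here.

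The replicate numbers were not treated as pairs, although 9 of 20 offspring correlated best with a mouse of their own number. Whether this exceeds what unpaired numbers would give was not tested. With the replicate block DMCs numbered 19 in the F0, 10, 14 and 12 in the control comparisons and 9, 7 and 10 in the others, DMRs 6, 3, 3, 0, 2, 2 and 1, and gene-level calls 0. Of 103 single calls the block kept 98, and the F test kept 0.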

Other observations

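Both other guidance CpGs whose strands differed by over 50 points were in the Ephb2 body. In the first the strands read 98.1% ± 3.67 and 40.5% ± 16.3, and in the second 9.56% and 100% (n = 20 mice). In the Slit1 body, the window at chr19:41670001-41671000 had a mean of 49.1% ± 2.89, and it was chosen after its values were seen. The causes were not tested.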
